A study of Mus musculus with 34 samples.

Results

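Grm3 and Grm5 encode the metabotropic glutamate receptors mGluR3 and mGluR5, which have been described in rodent astrocytes as exchanging places during postnatal development, mGluR5 being the receptor of young astrocytes and mGluR3 that of adult ones. Both genes were taken by symbol from the expression table, 2 of the 20613 genes with values, and were followed through all 34 libraries and 9 ages. Grm3 (ENSMUSG00000003974) lies on the minus strand of chromosome 5 (9485541 to 9725170, GRCm38), and Grm5 (ENSMUSG00000049583) on the plus strand of chromosome 7 (87584168 to 88134907, GRCm38). In the GENCODE mouse release 21 annotation Grm3 has 1 transcript and Grm5 has 7, of which 3 are protein coding, and no other annotated gene shares exonic bases with either.

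The libraries hold polyadenylated RNA of cortical astrocytes, separated by a magnetic method, from male mice that were all of wild-type (WT) genotype, with no treatment named. There were 4 libraries each at postnatal days 7 (P7) and 14 (P14), 3 each at P21, P28 and P60, 5 each at 3 months (3m) and 6m, 3 at 12m and 4 at 18m. Nothing in the labels ties a library to an animal of its own, so p-values measure only the spread between these libraries, which may be technical. Values are in TPM, a transcript's share of its library on a fixed scale, and are scaled for transcript length, so that levels can be compared between genes.

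mGluR5 belongs to the group I receptors, which act through the G protein Gq and phospholipase C to form inositol trisphosphate (IP3) and release calcium from the endoplasmic reticulum, and its long tail binds Homer scaffold proteins. mGluR3 belongs to the group II receptors, which act through Gi/o proteins to inhibit adenylyl cyclase, and besides glutamate it responds to the dipeptide N-acetylaspartylglutamate (NAAG). Neurons and oligodendrocyte precursors also make these receptors.

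The 10 astrocyte markers checked were each at a mean of at least 1 TPM at every age compared below. The neuronal, oligodendrocyte precursor, endothelial, mural, ependymal, fibroblast and erythroid markers also reached that level, so it does not by itself set astrocytes apart. Together the astrocyte markers summed to between 10098 and 23897 TPM per library. Transcripts of other cells were also present and varied with age: 9 neuronal markers summed to between 35.1 and 587.5 TPM per library, and 4 markers of oligodendrocyte precursors to between 29.3 and 129 TPM. Oligodendrocyte markers summed to between 191 and 2507 TPM, endothelial markers to between 209 and 2630 TPM and mural markers to between 1236 and 4933 TPM. Ependymal markers summed to between 101 and 1353 TPM, fibroblast markers to between 67.8 and 394 TPM and microglial markers to between 66.9 and 146 TPM. Erythroid markers summed to between 262 and 37395 TPM. Their sum was above that of the astrocyte markers in P21 replicates 2 and 3, 12m replicate 1 and 18m replicate 1. The count of genes listed at 0 TPM also set libraries apart, in 3 ranges: 4109 to 4819 at P7, P14, 18m and in 12m replicates 1 and 2, 2854 to 3523 at P21, P28 and P60, and 1155 to 1704 at 3m, 6m and in 12m replicate 3. Between ages of different ranges, the effect of age cannot be told apart from that of the range. In these bulk libraries fewer cells of a type and less RNA per cell cannot be told apart either.

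Grm3 was the most abundant of the 7 metabotropic glutamate receptor genes compared here in 34 of 34 libraries and exceeded Grm5 in 34 of 34, from P7 onward. By transcript level, Grm3 and Grm5 therefore did not exchange places in rank at the ages sampled. Receptor protein was not measured here, so whether the proteins exchange places was not tested. By age mean, what varied was the size of the gap between them, taken as a ratio. No pair of ages tested for this gap passed after adjustment (exact permutation test, lowest adjusted p = 0.0714). As the ratio of the highest to the lowest age mean, Grm5 moved more, at 5.10 against 1.60 for Grm3. In TPM Grm3 moved more, with age means from 191 to 305 TPM, against 2.82 to 14.4 TPM for Grm5. By mean TPM at each age, Grm3 ranked between 443 and 841 among the 20613 genes and Grm5 between 7187 and 11753.

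Grm3, the Gi/o-coupled receptor, measured 198, 209, 244 and 215 TPM in the 4 P7 libraries. It measured 253, 286, 249 and 302 TPM at P14, 283, 259 and 235 TPM at P21, and 273, 296 and 346 TPM at P28. All P14 and P28 libraries were above all P7 libraries, while the lowest P21 library lay within the P7 range. In young adults Grm3 measured 184, 179.8 and 210.1 TPM at P60, and 292, 326, 252, 227 and 203 TPM at 3m. It measured 288, 299, 343, 347 and 175 TPM at 6m, 259.7, 229.9 and 271 TPM at 12m, and 171, 194, 200.5 and 197 TPM at 18m. The P60 and 18m libraries and 6m replicate 5 were thus at the low end, together with P7 replicates 1 and 2 and 3m replicate 5, while the other 6m libraries were among the highest.

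Ordered by age mean, Grm3 was highest at P28 (305 ± 37.3 TPM, SD, n = 3), followed by 6m (290.5 ± 69.8, n = 5), P14 (272 ± 25.7, n = 4), 3m (259.9 ± 49.5, n = 5), P21 (259 ± 23.9, n = 3), 12m (253 ± 21.1, n = 3), P7 (216 ± 19.6, n = 4), P60 (191 ± 16.4, n = 3) and 18m (191 ± 13.7, n = 4). The highest mean was 1.60 times the lowest. In all 8 neighbouring pairs of this order the library ranges overlapped, and the gap between the means exceeded the larger SD only for 12m over P7 and for P7 over P60.

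Grm5, the Gq-coupled receptor, measured 15.1, 12.8, 14.6 and 15.1 TPM in the 4 P7 libraries. It measured 5.26, 6.37, 4.86 and 4.21 TPM at P14, 3.61, 3.78 and 3.56 TPM at P21, 3.95, 4.47 and 3.16 TPM at P28, and 2.69, 2.05 and 3.72 TPM at P60. Every P7 library was above every library of P14 to P60. From 3 months on the libraries of 1 age spread more widely. Grm5 measured 4.51, 11.4, 7.09, 11.4 and 14.3 TPM at 3m, 2.56, 3.50, 8.84, 7.80 and 1.24 TPM at 6m, 6.81, 13.4 and 5.28 TPM at 12m, and 1.46, 5.47, 4.66 and 2.10 TPM at 18m. The highest 3m and 12m libraries reached the P7 range, and no 6m or 18m library did.

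Ordered by age mean, Grm5 was highest at P7 (14.4 ± 1.09 TPM, SD, n = 4), followed by 3m (9.76 ± 3.91, n = 5), 12m (8.50 ± 4.33, n = 3), P14 (5.17 ± 0.905, n = 4), 6m (4.79 ± 3.34, n = 5), P28 (3.86 ± 0.660, n = 3), P21 (3.65 ± 0.118, n = 3), 18m (3.42 ± 1.94, n = 4) and P60 (2.82 ± 0.842, n = 3). The highest mean was 5.10 times the lowest. Neighbours in this order overlapped in all 8 pairs, and only the gap between P7 and 3m exceeded the larger SD.

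**Figure D1:**
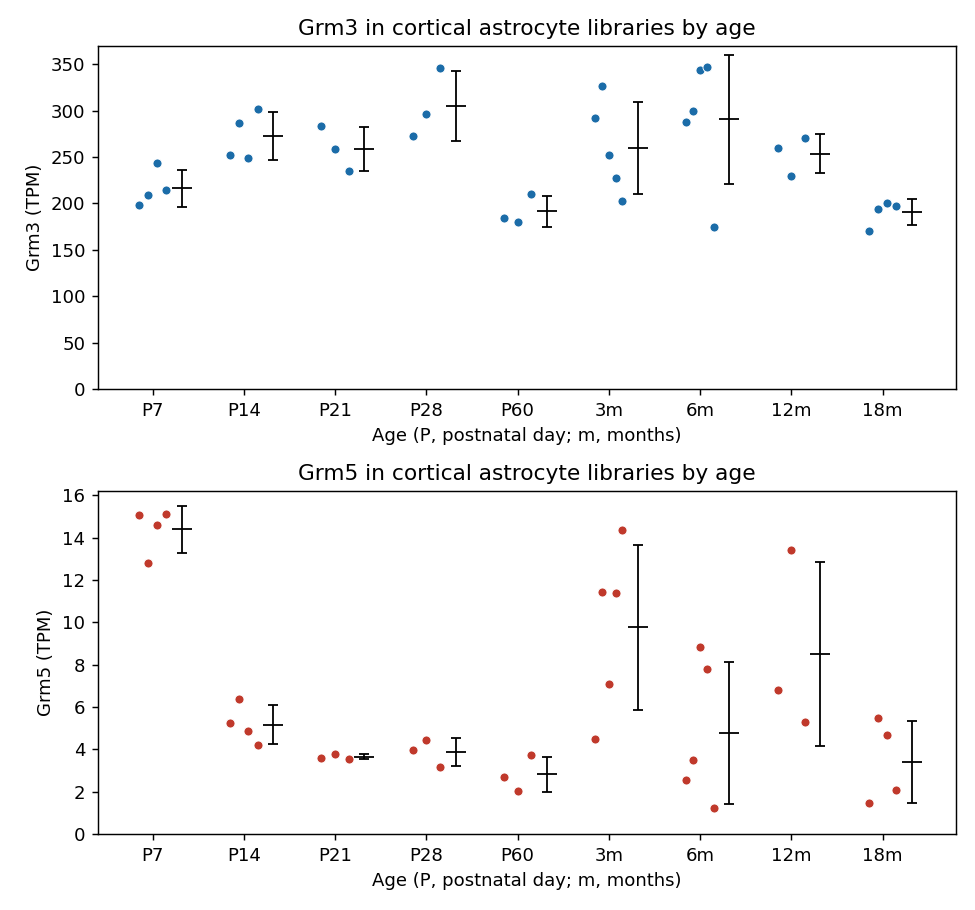
TPM of Grm3 (upper panel) and Grm5 (lower panel) in each library, by age, with 1 point per library and, to its right, the age mean with bars of 1 SD (n = 3 to 5). Grm3 stayed between 171 and 347 TPM, while Grm5 was at 12.8 to 15.1 TPM at P7 and at 2.05 to 6.37 TPM in the libraries of P14 to P60.

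Both genes differed among the 9 ages in the F test of limma, Grm5 with F = 6.97 (adjusted p = 0.000375) and Grm3 with F = 4.60 (adjusted p = 0.0034). That was common, since 63.6% of the 14590 genes tested passed. By this F test Grm5 ranked 1629 and Grm3 ranked 4186.

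P60 was compared with P7 to describe development. Grm5 averaged 2.82 ± 0.842 TPM at P60 (SD, n = 3) and 14.4 ± 1.09 TPM at P7 (SD, n = 4), 5.10-fold lower at P60, and no P60 library reached the lowest P7 library. Its log2 fold change was -2.03 ± 0.39 (SE, adjusted p = 0.000269), in a comparison in which 52.8% of genes were called, 33.3% lower and 19.5% higher, and in which 60.4% had ranges that did not overlap. Grm3 averaged 191 ± 16.4 TPM at P60 (SD, n = 3) and 216 ± 19.6 TPM at P7 (SD, n = 4), and the ranges overlapped. Its log2 fold change was -0.17 (95% interval -0.51 to 0.16, adjusted p = 0.372), so that no difference was called. Its sign turned to 0.00 and 0.02 under median-of-ratios rescaling and quantile normalization, and with the astrocyte marker mean as a covariate it was -0.45 (adjusted p = 0.014).

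Markers of other cells also differed between these ages. The 9 neuronal markers summed to 294.5 to 587.5 TPM at P60 and 35.1 to 54.3 TPM at P7. With neuron and oligodendrocyte marker means as covariates the log2 fold change of Grm5 was -2.88 (adjusted p = 0.000371). The 4 markers of oligodendrocyte precursors summed to 45.8 to 101 TPM at P60 and 30.3 to 42.9 TPM at P7. The part of these cells in the difference of Grm5 was not tested further. Over the 12 alternatives run for this comparison the log2 fold change of Grm5 ran from -2.88 to -1.88, with adjusted p between 8.61e-07 and 0.00659. P60 and P7 lie in different ranges of genes at 0.

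The first step, P14 against P7, lies within 1 range of genes at 0. Grm5 averaged 5.17 ± 0.905 TPM at P14 and 14.4 ± 1.09 TPM at P7 (SD, n = 4 each), with no overlap, and fell by 1.33 ± 0.36 on the log2 scale (SE, adjusted p = 0.0202). In this step 11.8% of genes were called, 8.57% lower, and 34.5% had ranges that did not overlap. The adjusted p was 0.051 without P7 replicate 1, 0.0548 without P7 replicate 4 and 0.0589 without P14 replicate 4. Grm3 averaged 272 ± 25.7 TPM at P14 and 216 ± 19.6 TPM at P7 (SD, n = 4 each), also with no overlap, and its log2 fold change of 0.33 (95% interval 0.02 to 0.64) was not called (adjusted p = 0.133). It was called under several alternatives, among them the rescaling (0.46, adjusted p = 0.0255) and the fit to libraries of 1 range (0.33, adjusted p = 0.0173). With the astrocyte marker mean as a covariate its sign turned, at -0.07 (adjusted p = 0.798): those markers summed to 15344 to 17855 TPM at P14 and 10098 to 12117 TPM at P7, and their part in the difference was not tested further.

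No later step up to P60 was called for Grm5. Its log2 fold change was -0.40 for P21 vs P14 (adjusted p = 0.503), 0.06 for P28 vs P21 (0.988) and -0.36 for P60 vs P28 (0.659), with 13.2%, 0.0206% and 1.12% of genes called. For P28 vs P21 its sign turned under rescaling and quantile normalization and without P28 replicate 2. Grm3 had -0.07 (adjusted p = 0.789), 0.23 (0.841) and -0.67 (0.051) in the same steps. The last of these, P60 against P28, had no overlap of libraries, as had 30.4% of genes, and Grm3 was called there under 7 of 12 alternatives, with adjusted p from 0.000931 to 0.0445.

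3m libraries were compared with P60 libraries, both from young adults. Grm5 averaged 9.76 ± 3.91 TPM at 3m (SD, n = 5) and 2.82 ± 0.842 TPM at P60 (SD, n = 3), 3.46-fold higher at 3m. The lowest 3m library, at 4.51 TPM, was above the highest P60 library, at 3.72 TPM, and 24.2% of genes had ranges that did not overlap. The log2 fold change was 1.43 ± 0.37 (SE, adjusted p = 0.0141), with 10.2% of genes called and 8.26% called higher. The call was lost without P60 replicate 1 (adjusted p = 0.0527) and without P60 replicate 2 (0.0797). It was also lost with the number of genes at 0 as a covariate, at 1.57 (0.0782), and the ages lie in different ranges of that number. Neuronal markers, at 121 to 532.5 TPM at 3m and 294.5 to 587.5 TPM at P60, overlapped between these ages. Grm3 averaged 259.9 ± 49.5 TPM at 3m and 191 ± 16.4 TPM at P60, and its log2 fold change of 0.42 was not called (adjusted p = 0.078). It was called without 3m replicate 5 (0.51, adjusted p = 0.0407).

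From 3m on the means of Grm5 did not move in 1 direction. Grm5 was lower at 6m than at 3m, with a log2 fold change of -1.02 ± 0.32 (SE, adjusted p = 0.0445, 9.32% of genes called, 7.25% lower) and overlapping ranges. That call was lost under 6 of 12 alternatives and without any of 3m replicates 2, 4 and 5 and 6m replicates 1, 2 and 5, with adjusted p up to 0.387. For 12m vs 6m the log2 fold change of 0.83 was not called (adjusted p = 0.425, 0.0548% of genes called). For 18m vs 12m it was -1.12 ± 0.39 (SE, adjusted p = 0.0404, 20.2% of genes called, 18.6% lower), again with overlap. That call was lost under 7 of 12 alternatives and without 12m replicate 1, 12m replicate 2, 18m replicate 1 or 18m replicate 4, with adjusted p up to 0.326. Grm3 was not called in these steps, with 0.14 (adjusted p = 0.572), -0.16 (0.720) and -0.41 (0.0724).

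**Figure D2:**
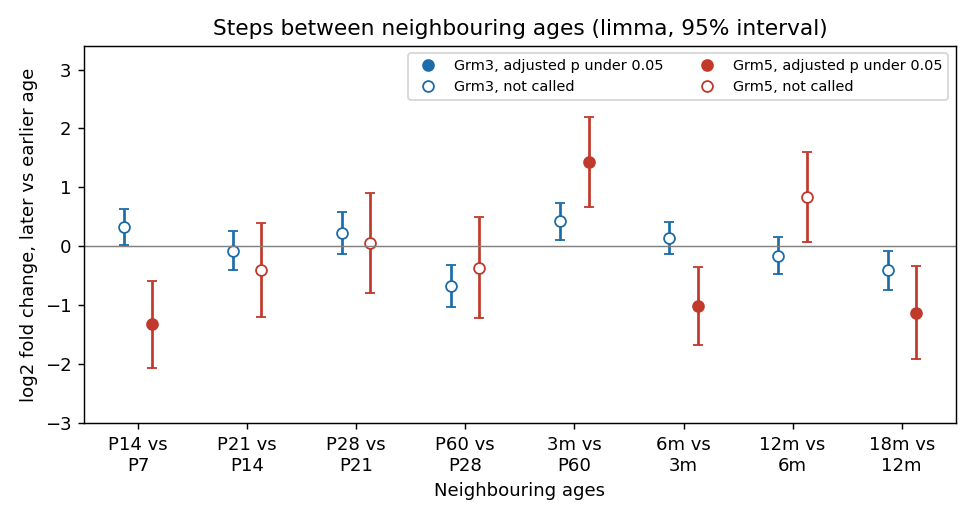
Log2 fold change of log2(TPM + 1), later against earlier age, for Grm3 (blue) and Grm5 (red) in the 8 steps between neighbouring ages, with unadjusted 95% intervals from limma. Filled points passed an adjusted p of 0.05: Grm5 for P14 vs P7, 3m vs P60, 6m vs 3m and 18m vs 12m, and Grm3 in no step.

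18m was compared with 3m to describe aging, and the transcripts of both receptors were lower. Grm5 averaged 3.42 ± 1.94 TPM at 18m (SD, n = 4) and 9.76 ± 3.91 TPM at 3m (SD, n = 5), 2.85-fold lower at 18m. The ranges overlapped, since 18m replicates 2 and 3 were above the lowest 3m library. The log2 fold change was -1.31 ± 0.34 (SE, adjusted p = 0.0043), in a comparison with 37.5% of genes called, 33.4% lower and 4.16% higher. Grm3 averaged 191 ± 13.7 TPM at 18m (SD, n = 4) and 259.9 ± 49.5 TPM at 3m (SD, n = 5), and every 18m library was below every 3m library, as was the case in 1 direction or the other for 29.2% of genes. Its log2 fold change was -0.43 ± 0.14 (SE, adjusted p = 0.0199).

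Neither of these calls held throughout. Neuronal markers summed to 50.3 to 131 TPM at 18m and 121 to 532.5 TPM at 3m, and with neuron and oligodendrocyte marker means as covariates the log2 fold change of Grm5 was -0.60 (adjusted p = 0.296). With the number of genes at 0 as a covariate it was -1.56 (adjusted p = 0.234). The median of all genes tested was -0.24 on the log2 scale, and after median-of-ratios rescaling it was -0.02. Grm3 then stood at -0.18 (adjusted p = 0.282). With the astrocyte marker mean as a covariate it was -0.18 (adjusted p = 0.308), and with the number of genes at 0 it was -0.26 (adjusted p = 0.707). Its call was also lost without 3m replicate 1 (adjusted p = 0.0516), 3m replicate 2 (0.0677) or 18m replicate 1 (0.078).

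18m and P7, the ends of the age range, lie in 1 range of genes at 0. Grm5 averaged 3.42 ± 1.94 TPM at 18m and 14.4 ± 1.09 TPM at P7 (SD, n = 4 each), 4.20-fold lower at 18m with no overlap, as for 34.3% of genes. The log2 fold change was -1.91 ± 0.36 (SE, adjusted p = 0.000329), with 29.6% of genes called and 24.9% called lower. It stayed between -2.23 and -1.67 over 13 alternatives, with adjusted p from 5.56e-06 to 0.0019, and between -2.13 and -1.66 when single libraries were left out. Grm3 averaged 191 ± 13.7 TPM at 18m and 216 ± 19.6 TPM at P7, a log2 fold change of -0.18 (95% interval -0.49 to 0.13, adjusted p = 0.370), and rescaling turned it to 0.08. Against P60 neither receptor was called at 18m, with 13.8% of genes called: Grm5 had a log2 fold change of 0.12 (95% interval -0.67 to 0.92, adjusted p = 0.874) and Grm3 -0.00 (-0.34 to 0.33, adjusted p = 0.991). The comparisons with P7 share the P7 libraries, and those of 18m share the 18m libraries.

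The gap between the receptors was measured in each library as log2(Grm3 TPM + 1) minus log2(Grm5 TPM + 1). As a plain ratio, Grm3 was 13.1, 16.3, 16.7 and 14.2 times Grm5 in the P7 libraries, 48.0, 45.0, 51.2 and 71.7 times at P14, and 68.4, 87.8 and 56.5 times at P60. In older mice it was 64.6, 28.5, 35.6, 19.9 and 14.1 times at 3m, 112, 85.5, 38.8, 44.5 and 141 times at 6m, 38.2, 17.1 and 51.3 times at 12m, and 117, 35.5, 43.0 and 93.9 times at 18m. All P7 libraries were below all libraries of P14 to P60 and of 18m, while 1 of the 5 libraries at 3m lay within the P7 range.

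On the log2 scale the gap was 5.67 ± 0.20 at P60 (SD, n = 3) and 3.82 ± 0.16 at P7 (SD, n = 4). The difference of 1.86 gave p = 0.0571 in an exact two-sided permutation test, the smallest that these numbers allow, and 0.0952 after adjustment over the 5 age pairs tested. At P14 the gap was 5.48 ± 0.26 and at 18m 5.55 ± 0.60, against 3.82 ± 0.16 at P7 (SD, n = 4 each). Differences of 1.66 and 1.73 each gave an exact permutation p of 0.0286, the smallest possible, and 0.0714 after adjustment. The gap was 5.55 ± 0.60 at 18m (SD, n = 4) and 4.67 ± 0.76 at 3m (SD, n = 5), a difference of 0.88 (exact permutation p = 0.0952, adjusted 0.119). Between 18m and P60 the difference was -0.13 (exact permutation p = 0.8). None of the 5 pairs passed 0.05 after adjustment, and with the numbers of libraries at P60 and P7 no result could have passed.

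**Figure D3:**
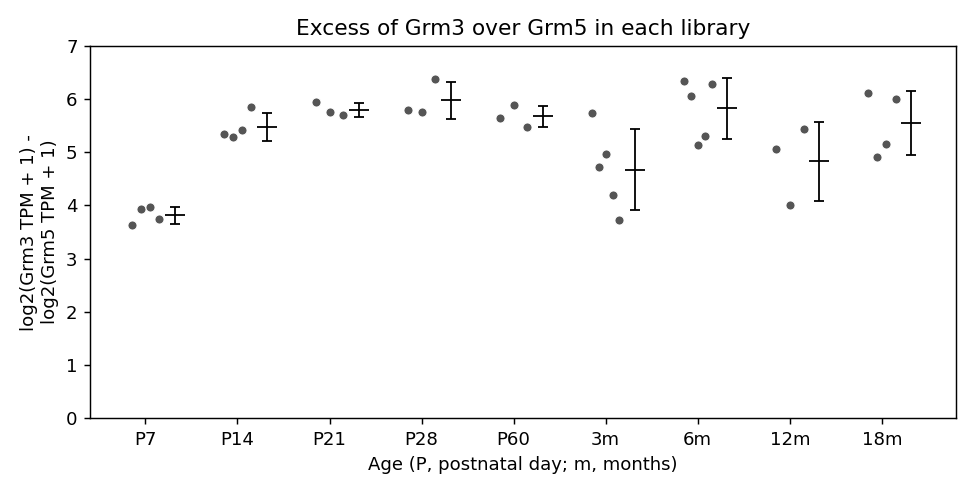
Difference log2(Grm3 TPM + 1) minus log2(Grm5 TPM + 1) in each library by age, with the age mean and bars of 1 SD (n = 3 to 5) to the right of the points. The 4 P7 libraries lie between 3.63 and 3.97, and libraries of P14 to P60 lie between 5.29 and 6.38.

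Levels of Grm3 and Grm5 did not mirror each other. Over the 9 age means of log2(TPM + 1) Pearson's r was 0.07 and Spearman's rho 0.17, and over the 34 libraries r was 0.15 and rho 0.12, as descriptions of values from shared libraries. After the age means were subtracted r was 0.33 over 34 libraries. In the same deviations Grm3 went with the astrocyte marker mean (r = 0.65), and Grm5 with the microglial (0.44) and neuronal (0.42) marker means. Grm5 also had r = 0.30 with the astrocyte, 0.25 with the oligodendrocyte precursor and -0.33 with the mural marker mean. The part of these cells in the spread of Grm5 was not tested.

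The other receptors of the family were far below Grm3. Grm3 made up 93.8 ± 0.337% of the summed TPM of these 7 genes at P60 (SD, n = 3) and 92.6 ± 0.682% at P7 (SD, n = 4), and between 89.8% and 97.6% over all libraries. The share of Grm5 was 1.07% to 1.65% in the 3 libraries at P60 and 5.59% to 6.99% in the 4 libraries at P7. It was 1.69 ± 0.905% at 18m (SD, n = 4) and 3.70 ± 1.87% at 3m (SD, n = 5). Grm5 was the second most abundant of the 7 in 25 of 34 libraries. In the other 9 libraries Grm7, a group III receptor that couples to Gi/o and is best known from presynaptic terminals, was above it. These were 2 of 3 libraries at P21, 1 of 3 at P28, 3 of 3 at P60, 1 of 5 at 6m and 2 of 4 at 18m.

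Grm7 measured 4.27, 7.12 and 7.41 TPM at P60, and 1.51, 2.02, 1.72 and 1.83 TPM at P7, with no overlap. Its log2 fold change was 1.364 ± 0.311 (SE, adjusted p = 0.000954). Grm2, the other group II receptor, measured 2.43, 1.82 and 1.49 TPM at P60 and 0.273, 0.279, 0.571 and 0.306 TPM at P7, and rose by 1.09 ± 0.23 on the log2 scale (SE, adjusted p = 0.000566). The call for Grm2 was lost with the neuron and oligodendrocyte covariates (0.13, adjusted p = 0.705), while Grm7 kept its call under all 11 alternatives. Grm4, of group III, averaged 0.965 ± 0.368 TPM at P60 and 0.278 ± 0.0299 TPM at P7 and rose as well (adjusted p = 0.0186), with the call lost under those covariates (adjusted p = 0.315). Grm8, also of group III, was not called (adjusted p = 0.0789), and Grm6 of group III was below the filter on low values.

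At 18m against 3m Grm2 fell by 0.97 ± 0.20 on the log2 scale (SE, adjusted p = 0.000736) and Grm8 by 0.53 ± 0.15 (SE, adjusted p = 0.00684). Grm2 averaged 0.318 ± 0.196 TPM at 18m (SD, n = 4) and 1.66 ± 0.774 TPM at 3m (SD, n = 5), and Grm8 0.176 ± 0.151 TPM at 18m and 0.693 ± 0.147 TPM at 3m. Both of these low-level calls were lost under 2 of 10 alternatives. Under quantile normalization the adjusted p was 0.0992 for Grm2 and 0.934 for Grm8. The call for Grm2 was also lost with the neuron and oligodendrocyte covariates (-0.38, adjusted p = 0.129), and that for Grm8 with the number of genes at 0 as a covariate (-0.11, adjusted p = 0.894). Grm4 (adjusted p = 0.0723) and Grm7 (0.330) were not called.

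**Figure D4:**
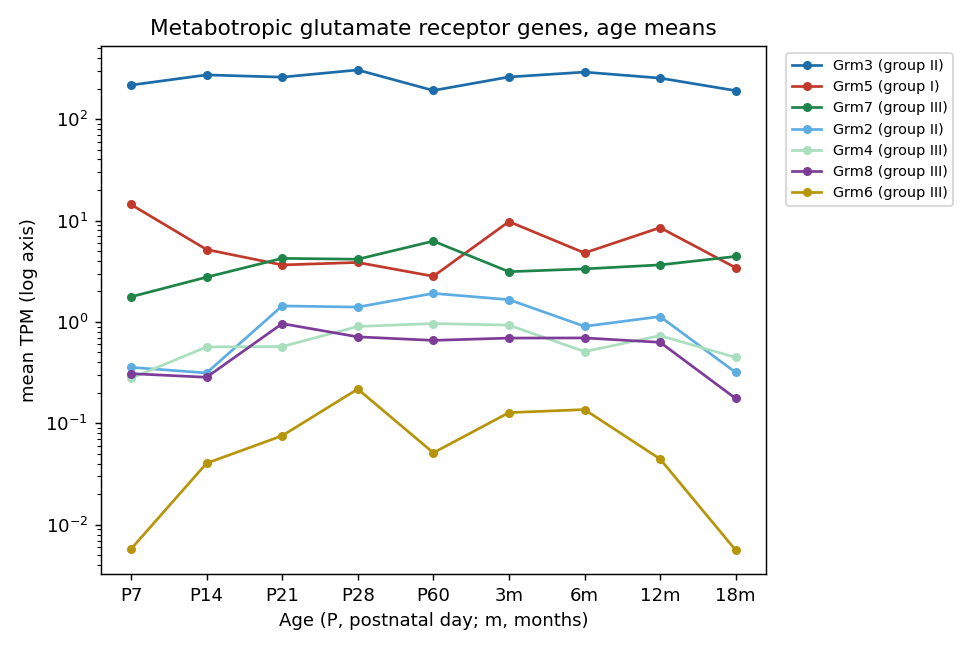
Mean TPM of the 7 metabotropic glutamate receptor genes at each age, on a log axis (n = 3 to 5 libraries per age). Grm3 lies above the other genes at every age, and the lines of Grm5 and Grm7 cross, with Grm7 at 6.27 TPM and Grm5 at 2.82 TPM at P60.

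The genes that make and break down NAAG, the dipeptide agonist of mGluR3, did not move in 1 direction at P60 against P7: of 6 tested, 2 rose, 1 fell and 3 were not called, a count near the 52.8% of all genes called, with a median log2 fold change of 0.07 against -0.15 for all genes. Folh1, which encodes glutamate carboxypeptidase II, the enzyme that cleaves NAAG, averaged 40.7 ± 3.65 TPM at P60 (SD, n = 3) and 27.1 ± 3.73 TPM at P7 (SD, n = 4, adjusted p = 0.0268). Nat8l, which makes N-acetylaspartate, averaged 6.06 ± 0.929 TPM at P60 and 4.04 ± 0.617 TPM at P7 (adjusted p = 0.0144). Rimklb, a NAAG synthetase, was the one that fell, to 12.2 ± 0.690 TPM at P60 against 19.8 ± 1.40 TPM at P7 (adjusted p = 0.0131). With the neuron and oligodendrocyte covariates 0 of the 6 were higher and 0 lower at P60. At 18m against 3m, 0 rose, 2 fell and 4 were not called, near the 33.4% of all genes called lower, with a median of -0.32 against -0.24 for all genes. Nat8l averaged 3.56 ± 0.699 TPM at 18m and 6.96 ± 1.25 TPM at 3m (adjusted p = 0.000168), and Rimklb 9.28 ± 3.43 TPM at 18m and 16.6 ± 2.80 TPM at 3m (adjusted p = 0.00133). Both calls were lost with the number of genes at 0 as a covariate, while 3 of the 6 genes were lower with the neuron and oligodendrocyte covariates.

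Of 3 genes that clear glutamate or turn it into glutamine, 2 rose at P60 against P7, where 19.5% of all genes were called higher, and 2 fell at 18m against 3m, where 33.4% were called lower. After median-of-ratios rescaling 1 was higher and 1 lower at 18m against 3m, and with the neuron and oligodendrocyte covariates 1 was higher and 0 lower. Both calls at 18m were lost with the number of genes at 0 as a covariate. At P60 against P7, 0 were higher and 0 lower with the neuron and oligodendrocyte covariates, and 2 stayed higher after rescaling. Slc1a2 and Glul each kept their call at P60 under 10 of 11 alternatives. Slc1a2, the glutamate transporter GLT-1, averaged 399 ± 32.6 TPM at P60 and 211 ± 34.1 TPM at P7 (adjusted p = 0.0018), and 236 ± 20.1 TPM at 18m and 432 ± 97.9 TPM at 3m (adjusted p = 0.00199). Glul, glutamine synthetase, was 2.01-fold higher at P60 than at P7 (adjusted p = 0.000224).

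Of the 13 tested genes of the Gq, phospholipase C and IP3 pathway through which mGluR5 signals, 6 rose, 1 fell and 6 were not called at P60 against P7, with a median log2 fold change of 0.33 against -0.15 for all genes. The number called in either direction was near the 52.8% of all genes, of which 19.5% were higher and 33.3% lower. Gnaq, the alpha subunit of Gq, averaged 15.5 ± 0.889 TPM at P60 (SD, n = 3) and 15.2 ± 1.15 TPM at P7 (SD, n = 4) and was not called (adjusted p = 0.892). Plcb1, a phospholipase C that Gq activates, rose to 33.2 ± 1.80 TPM at P60, against 11.7 ± 1.76 TPM at P7 (adjusted p = 0.000551). The IP3 receptor genes Itpr1 and Itpr2 also rose. Itpr2, the isoform best known from astrocytes, averaged 43.6 ± 7.92 TPM at P60 and 29.6 ± 3.13 TPM at P7 (adjusted p = 0.0284). Itpr2 kept its call under 7 of 11 alternatives, with log2 fold changes from 0.14 to 0.71 and adjusted p up to 0.67. Itpr1, the isoform prominent in neurons, averaged 17.6 ± 3.89 TPM at P60 and 5.92 ± 0.827 TPM at P7 (adjusted p = 0.000527). Prkce, a protein kinase C gene, was 3.00-fold higher at P60 than at P7 (adjusted p = 0.000223). With the neuron and oligodendrocyte covariates 1 gene of this list was higher and 1 lower at P60. After median-of-ratios rescaling 9 were higher and 1 lower.

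At 18m against 3m, 8 of the same 13 genes fell, 0 rose and 5 were not called, with a median of -0.64 against -0.24 for all genes. Of all genes, 33.4% were called lower and 4.16% higher. Gnaq averaged 11.2 ± 1.39 TPM at 18m (SD, n = 4) and 18.3 ± 1.77 TPM at 3m (SD, n = 5, adjusted p = 0.000179). Itpr1 averaged 5.10 ± 0.827 TPM at 18m and 13.8 ± 4.42 TPM at 3m (adjusted p = 0.000742), Plcb1 15.1 ± 6.21 TPM at 18m and 25.5 ± 6.36 TPM at 3m (adjusted p = 0.0216), and Prkce 1.95 ± 0.434 TPM at 18m and 6.48 ± 1.69 TPM at 3m (adjusted p = 3.28e-05). Plcb1 kept its call under 6 of 11 alternatives, with adjusted p up to 0.817, and Prkce under 11 of 11.

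Of the 14 tested genes of the Gi/o proteins and adenylyl cyclases, through which mGluR3 signals, 5 rose, 3 fell and 6 were not called at P60 against P7, near the 52.8% of all genes called, with a median of 0.07 against -0.15 for all genes. Gnai2, an inhibitory G protein subunit, averaged 453 ± 10.9 TPM at P60 (SD, n = 3) and 690.1 ± 41.8 TPM at P7 (SD, n = 4, adjusted p = 0.00134). Gnao1, the Go subunit, averaged 193 ± 18.3 TPM at P60 and 128 ± 16.0 TPM at P7 (adjusted p = 0.0403). The adenylyl cyclase genes Adcy2 and Adcy1 were 2.52-fold and 7.12-fold higher at P60 (adjusted p = 0.000187 and 0.000744). At 18m against 3m, 8 fell, 0 rose and 6 were not called, where 33.4% of all genes were called lower, with a median of -0.46 against -0.24 for all genes. Adcy2 averaged 35.7 ± 11.7 TPM at 18m and 81.2 ± 18.4 TPM at 3m (adjusted p = 0.000179), and Gnao1 139 ± 44.8 TPM at 18m and 211 ± 33.1 TPM at 3m (adjusted p = 0.0165). In each of these comparisons Gnao1 kept its call under 7 of 11 alternatives, with adjusted p up to 0.917 at P60 and 0.372 at 18m. With the neuron and oligodendrocyte covariates 2 genes of this list were higher and 1 lower at P60. With the number of genes at 0 as a covariate 0 were higher and 1 lower at 18m.

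Of 12 scaffold and partner genes, 6 rose, 2 fell and 4 were not called at P60 against P7, where 52.8% of all genes were called and 19.5% were higher, with a median of 0.58 against -0.15 for all genes. Homer1, the scaffold that binds the tail of mGluR5, was at 6.53 ± 1.46 TPM at P60 (SD, n = 3) and 6.54 ± 1.01 TPM at P7 (SD, n = 4) and was not called (log2 fold change -0.01, adjusted p = 0.957). Homer2, which binds the same motif, averaged 18.7 ± 6.48 TPM at P60 and 7.34 ± 1.29 TPM at P7 (adjusted p = 0.00197). Shank1 and Shank2, postsynaptic scaffolds that bind Homer, were 20.0-fold and 4.62-fold higher at P60 (adjusted p = 0.000429 and 0.000609). At 18m against 3m, 7 fell, 0 rose and 5 were not called, where 37.5% of all genes were called and 33.4% were lower, with a median of -0.79 against -0.24 for all genes. Homer1 averaged 4.80 ± 0.540 TPM at 18m and 8.01 ± 1.19 TPM at 3m (adjusted p = 0.00136), Homer2 6.29 ± 2.11 TPM at 18m and 18.1 ± 5.40 TPM at 3m (adjusted p = 0.000286), and Shank2 was 4.06-fold lower at 18m (adjusted p = 0.000275). With the neuron and oligodendrocyte covariates 0 of this list were higher and 0 lower at P60, and 0 were higher and 2 lower at 18m.

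Of 13 tested genes of ionotropic glutamate receptors, the channels that share the ligand, 5 rose, 0 fell and 8 were not called at P60 against P7, with a median of 0.46 against -0.15 for all genes. Fewer of them were called than the 52.8% of all genes, of which 19.5% were higher. The AMPA receptor subunit Gria1 averaged 16.0 ± 2.95 TPM at P60 and 5.18 ± 1.16 TPM at P7 (adjusted p = 0.000144), and the NMDA receptor subunits Grin2b and Grin2c were 2.78-fold and 5.10-fold higher (adjusted p = 0.000284 and 0.00188). At 18m against 3m, 6 fell, 0 rose and 7 were not called, where 37.5% of all genes were called and 33.4% were lower, with a median of -0.43 against -0.24 for all genes. Gria1 was 2.31-fold lower at 18m (adjusted p = 0.000668) and Grin2b 2.57-fold lower (adjusted p = 0.00018). These counts at 18m depended on the processing. After median-of-ratios rescaling 0 were higher and 2 lower, and under quantile normalization 2 were higher and 2 lower. With the neuron and oligodendrocyte covariates 0 were higher and 2 lower, and with the number of genes at 0 as a covariate 0 and 0. At P60 against P7 the marker covariates gave 3 higher and 1 lower.

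Over these 6 lists, 33 of 61 tested genes were called at P60 against P7, near the 52.8% of all genes called in either direction. Of the 61, 26 were higher and 7 lower, where 19.5% of all genes were called higher and 33.3% lower. Between 18m and 3m 33 of 61 were called, all of them lower at 18m, where 37.5% of all genes were called and 33.4% were lower. After median-of-ratios rescaling 31 were higher and 5 lower at P60 against P7, and 2 were higher and 23 lower at 18m against 3m. Neuronal markers moved the same way in both comparisons: 6 of 9 rose at P60 against P7 and 6 of 9 fell at 18m against 3m. Of all genes, 19.5% were called higher in the former and 33.4% lower in the latter. None of the markers was at 0 in all libraries of either age. Together with the other metabotropic receptors, 36 genes were called at P60 against P7 and 35 at 18m against 3m. With neuron and oligodendrocyte marker means as covariates 10 and 20 were called, and with the number of genes at 0 as a covariate 27 and 8. With the marker covariates the signs of Homer2, Shank1, Adcy1 and Gnao1 turned at P60 against P7, while Adcy2, Gria1 and Grin2b kept their calls. The part of neuronal RNA in these list counts was not tested further. Grm5 was called lower in both comparisons, and the part of neuronal RNA in its level was not tested further either.

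**Figure D5:**
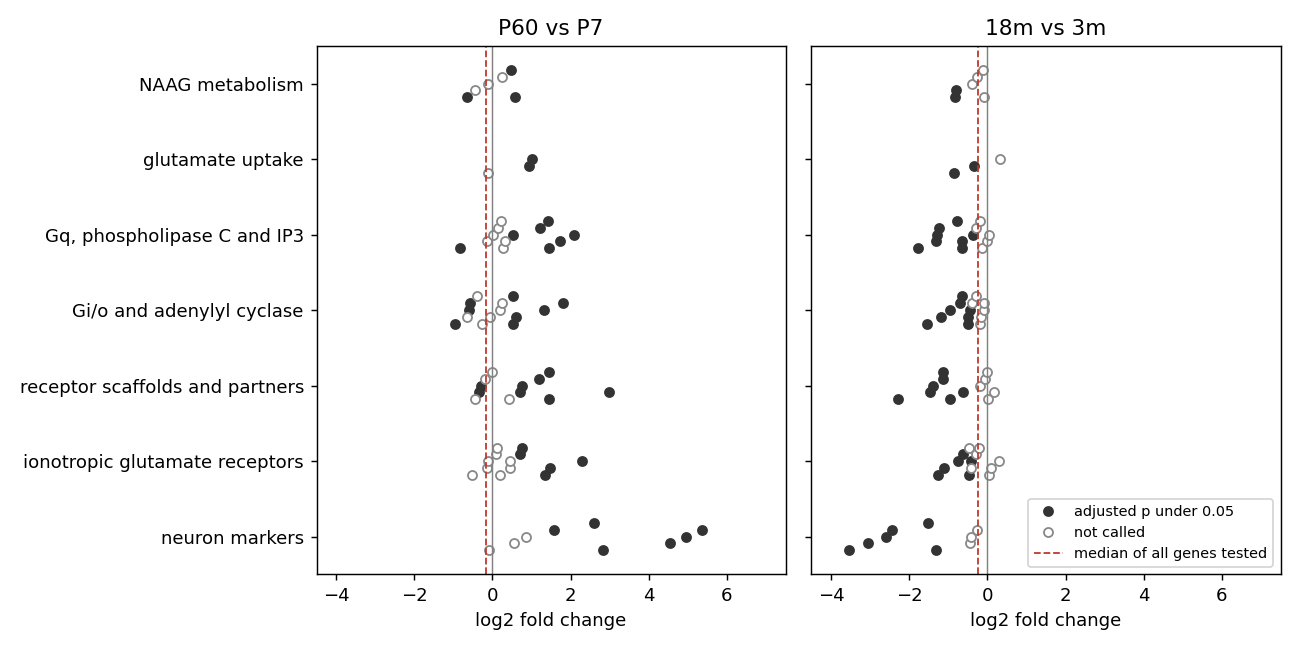
Log2 fold changes of the tested genes of 6 lists around both receptors and of 9 neuronal markers, at P60 vs P7 (left) and 18m vs 3m (right), with 1 point per gene, filled where the adjusted p was under 0.05, and a dashed line at the median of all genes. At 18m vs 3m every called point lies below 0, and the neuronal markers have the widest spread in both panels.

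The genes whose 9 age means were most like those of Grm3 among 11067 eligible genes were Tmem38a (Pearson's r = 0.98), Meak7 (0.98), Ints9 (0.98), Tank (0.98) and Nadk (0.98), and 104 genes had r above 0.9. For Grm5 they were Trim59 (0.99), Upf3a (0.99), Flna (0.99), Endov (0.98) and Cldn34c1 (0.98), and 333 genes had r above 0.9. With so many genes at that level over 9 points, the lists depend on the measure. By Spearman's rho over the same 9 means, with tied genes sharing the best rank, the 5 genes of Grm3 ranked between 2 and 40 and those of Grm5 between 1 and 519. By Pearson's r over all 34 libraries they ranked between 52 and 528 for Grm3 and between 171 and 4489 for Grm5.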

How the data were processed

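Per the labels' protocols, RNA of the isolated astrocytes was extracted by column, turned into cDNA by SMART-Seq v4 and sequenced on a NovaSeq. RSEM 1.2.28, STAR 2.7.1a, DESeq2 1.36.0, Trim Galore 0.6.4 and build mm10 appear, without roles, per the submitters' processing notes. The authors deposited TPM, 1 column per library. TPM keep no read counts, so depth is unknown and no counting interval is given. A further gene had no values.

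Values were analysed as log2(TPM + 1), a scale that understates changes of low genes. Genes reaching 1 TPM in 3 or more libraries, 14590 in all, entered limma 3.58.1 (R 4.3.3, statmod 1.5.0; trend, robust) with 1 mean per age over all 34 libraries. P-values were adjusted by Benjamini-Hochberg over all genes tested and called under 0.05; "rose" and "fell" refer to called genes, and folds given with TPM are ratios of means. The method was tested on simulated data. The gap between receptors was tested by exact permutation (scipy 1.17.1, Python 3.11.15). The members and the gene lists were chosen with earlier results of these data known.

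Named genes were metabotropic receptors (7 given here), fixed pathway genes (some items under this rule are not reported here), and up to 3 called members of smallest p per list and comparison, of which those given here were taken, and the 5 genes most like each receptor among tested genes reaching an age mean of 5 TPM. Positions came from GENCODE mouse release 21 on GRCm38, which is mm10. Alternatives were a pseudocount of 0.1, other filters, rescaling, quantile normalization, array weights, a replicate block, covariates, leaving out each library and a fit to only the 2 ages compared. The astrocyte and oligodendrocyte precursor covariates and the fit within 1 range of genes at 0 were added after seeing the data. Plots used pandas 2.3.3 and matplotlib 3.10.9.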

Additional observations from a re-analysis of the deposited data

Results flagged for a closer look

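Within groups of 4 or 5 libraries, 89 groups of values were checked for a library far from the others, and 6 were found; chance alone gives about 1 in 20. Grm2 at P7 was 0.571 TPM in replicate 3 and 0.273 to 0.306 TPM in the others. Grm4 at 6m was 0.930 TPM in replicate 3 and 0.293 to 0.453 TPM in the others. Grm6 was 0.0230 TPM in P7 replicate 2 and 0.0225 TPM in 18m replicate 1, where the other libraries of each age were listed at 0, and 0.197 TPM in 6m replicate 1 against 0.108 to 0.133 TPM in the others. Gnaq at 3m was 21.3 TPM in replicate 2 and 16.9 to 18.2 TPM in the others. No library stood apart in this way for Grm3 or Grm5.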

How the results depend on the processing

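The lower Grm5 at P60 vs P7 and at 18m vs P7 kept its direction and its call under every alternative run and without any single library. TPM hold no depth, so the precision of low values such as Grm5 from counting is unknown, and 3 to 5 libraries per age limit every comparison. All values here are log2 fold changes unless named otherwise, and the cause of a changed call was not tested.

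Under median-of-ratios rescaling the sign of Grm3 turned at P60 vs P7 (0.0036), 18m vs P7 (0.083) and 18m vs P60 (0.079), Grm3 lost its call at 18m vs 3m (-0.18) and gained one at P14 vs P7 (0.46), and Homer1 turned at P60 vs P7 (0.14). Grm5 turned at P28 vs P21 (-0.046) and lost its call at 18m vs 12m (-0.94). Under quantile normalization Grm3 turned at P60 vs P7 (0.020) and P21 vs P14 (0.14) and was called at P60 vs P28 (-0.69). Grm5 turned at P28 vs P21 (-0.0064) and lost its calls at 6m vs 3m (-0.82) and 18m vs 12m (-0.83). Homer1 turned at P60 vs P7 (0.0027), and 22 genes of the pathway lists were called at 18m vs 3m in place of 35.

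With array weights Grm3 turned at 18m vs P60 (0.046) and was called at P14 vs P7 (0.29), P60 vs P28 (-0.67) and 3m vs P60 (0.48), and Grm5 lost its call at 6m vs 3m (-0.85). Grm5 also lost that call with a pseudocount of 0.1 (-1.23) and without a filter (-1.02), as did Grm5 at 18m vs 12m without a filter (-1.12). With a filter of 5 TPM Grm3 was called at P60 vs P28 (-0.67). In the fit to only the ages compared, Grm3 was called at P14 vs P7 (0.33) and P60 vs P28 (-0.67), and Grm5 lost its calls at 6m vs 3m (-1.02) and 18m vs 12m (-1.12). Within 1 range of genes at 0, Grm3 was called at P14 vs P7 (0.33).

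With neuron and oligodendrocyte covariates Grm3 was called at P60 vs P28 (-0.66) and 3m vs P60 (0.50). Grm5 lost its calls at 18m vs 3m (-0.60), 6m vs 3m (-0.54) and 18m vs 12m (-0.77). At P60 vs P7 the signs of Adcy1 (-0.16), Shank1 (-0.075), Gnaq (-0.14), Homer2 (-0.26) and Gnao1 (-0.052) turned, 10 genes of the lists were called in place of 36, and 20 in place of 35 at 18m vs 3m. The calls over all genes at P60 vs P7 were 3430 in place of 7697.

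With the number of genes at 0 as a covariate Grm3 lost its call at 18m vs 3m (-0.26), turned at 18m vs P60 (0.073) and was called at P60 vs P28 (-0.69). Grm5 lost its calls at 18m vs 3m (-1.56), 3m vs P60 (1.57) and 18m vs 12m (-1.19). Gnaq (-0.060) and Homer1 (0.078) turned at P60 vs P7, 8 genes of the lists were called at 18m vs 3m in place of 35, and 297 of all genes in place of 5476.

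With the astrocyte covariate Grm3 was called at P60 vs P7 (-0.45), lost its call at 18m vs 3m (-0.18) and, with F = 2.54, over the 9 ages (adjusted p = 0.0578), and turned at 18m vs P60 (0.18) and P14 vs P7 (-0.071). Grm5 lost its call at 18m vs 12m (-0.76), Gnaq turned at P60 vs P7 (-0.17), and 3469 of all genes were called at 18m vs 3m in place of 5476. With the oligodendrocyte precursor covariate Grm3 at 18m vs P60 (0.023) and Homer1 at P60 vs P7 (0.016) turned.

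On average, replicate numbers showed no pairing of libraries: deviations of like-numbered libraries had a mean correlation of 0.0023 over 119 pairs, against -0.0003 for other numbers. Of the like-numbered pairs 26 were over 0.1, and 8 of 34 libraries correlated best with their own number. The counts to be met without pairing were not computed, so these values cannot exclude pairing. With a replicate block Grm3 was called at P14 vs P7 (0.33), P60 vs P28 (-0.67), 3m vs P60 (0.55) and 18m vs 12m (-0.41), and no other call of either receptor changed. At 18m vs 3m 6346 of all genes were then called in place of 5476.

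When single libraries were left out, Grm3 ran from -0.51 to -0.34 at 18m vs 3m, from -0.048 to 0.064 at 18m vs P60 and from 0.34 to 0.51 at 3m vs P60. Grm5 ran from -1.38 to -0.78 at 18m vs 12m, from -0.098 to 0.37 at 18m vs P60, from 1.28 to 1.65 at 3m vs P60, from -1.26 to -0.73 at 6m vs 3m, from -1.41 to -1.25 at P14 vs P7 and from -0.034 to 0.16 at P28 vs P21. The log2 gap of Grm3 over Grm5 ran from -0.32 to 0.084 at 18m vs P60.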
